A study of Mus musculus with 17 samples.

Results

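The 6 genes described here are Sprr1a, Sprr1b, Lipn, Tgm1, Anxa10 and Anxa1, taken from 78298 gene identifiers in the count tables of mouse lumbar dorsal root ganglia, the sensory ganglia at levels L4 to L6. They were chosen by their levels in wild type, near absent in sham-operated ganglia and present after nerve injury, or because their protein acts in the cornified layer of the skin. The wild-type values are therefore given below as descriptions with no test. All 6 symbols were found in the tables, and all 6 passed the low-count filter, Sprr1b, Lipn and Anxa10 only through libraries outside the sham wild-type group, where no library held 10 counts of any of the 3.

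The 17 bulk RNA libraries fall into 4 groups, all labelled day 30. CCI_KO (n = 3, numbered 2, 3 and 4) are ganglia after chronic constriction injury (CCI, loose ligatures that constrict a peripheral nerve) with the label KO, a knockout of Twik1, the potassium channel encoded by Kcnk1. Sham_KO (n = 4) carry the same genotype label after a sham operation, CCI_WT (n = 5) are injured wild type and Sham_WT (n = 5) sham wild type. Strain, age, sex, the deleted part of the gene and whether each library is a separate animal are not given in the labels, and p-values then reflect the spread among these samples alone.

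Library depth was 52.5 to 73.6 M counts in genes (M, mega), and levels are given as counts per M gene counts after library scaling (CPM). All 12 sensory neuron markers were present, with a summed level of 14338 to 17604 CPM. Kcnk1 stood at 75.1 to 114 CPM in the 7 libraries labelled KO, against 94.3 to 139 CPM in the 10 wild-type libraries, so the label is used here as a name. Sham_KO libraries 1 and 2 stood apart: Atf3, a transcription factor induced by axon injury, was at 140.6 and 103.3 CPM there, against 11.1 and 13.2 CPM in Sham_KO 3 and 4 and 9.42 to 16.8 CPM in Sham_WT. Schwann cell markers summed to 5574 to 8462 CPM in the libraries labelled KO, against 11043 to 16083 CPM in wild type. A number in the tables' names is common to the 9 sham libraries and another one marks each CCI group. What it stands for is unstated, and if it is a batch, batch and injury cannot be told apart.

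Cornification is the terminal step of epidermal differentiation. Keratinocytes cross-link small proline-rich proteins, loricrin, involucrin and late cornified envelope proteins into a sheath under the plasma membrane, with transglutaminases as the enzymes, and coat it with lipids. The genes of many of these proteins sit together in the epidermal differentiation complex. Sprr1a is also known outside skin: in mouse sensory neurons it is induced by axon injury, and its protein is found in regrowing axons. The annexins bind membrane phospholipids, and Anxa1 was first known as a mediator of glucocorticoid action that signals through formyl peptide receptors.

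Sprr1a (ENSMUSG00000050359, GRCm39 chromosome 3, 92390424 to 92393208, minus strand) and Sprr1b (ENSMUSG00000048455, chromosome 3, 92344116 to 92346096, minus strand) lie in the epidermal differentiation complex with a gap of 44.3 kb, in which Sprr3 is annotated. Lipn (ENSMUSG00000024770, chromosome 19, 34044758 to 34063345, plus strand) and Anxa1 (ENSMUSG00000024659, chromosome 19, 20350792 to 20368374, minus strand) lie on the same chromosome but 13676.4 kb apart. Anxa10 (ENSMUSG00000031635) is at chromosome 8, 62510076 to 62576184, and Tgm1 (ENSMUSG00000022218) at chromosome 14, 55937466 to 55951383, both on the minus strand. The 4 genes that were near 0 in Sham_WT and higher in CCI_WT (Sprr1a, Sprr1b, Lipn and Anxa10) shared a sequence feature. Each had an AP-1 motif, the recognition sequence of Fos and Jun family factors, in the 250 bases before its annotated start. Their windows are printed because they show where these motifs lie, 5′ to 3′ on the gene's own strand, from GRCm39 and the canonical transcript starts of GENCODE, with the AP-1 motif (TGANTCA) and the TATA motif (TATAAA) in capitals. They are Sprr1a chr3:92393209-92393458 (minus), Sprr1b chr3:92346097-92346346 (minus), Lipn chr19:34044508-34044757 (plus) and Anxa10 chr8:62576153-62576402 (minus).
Sprr1a: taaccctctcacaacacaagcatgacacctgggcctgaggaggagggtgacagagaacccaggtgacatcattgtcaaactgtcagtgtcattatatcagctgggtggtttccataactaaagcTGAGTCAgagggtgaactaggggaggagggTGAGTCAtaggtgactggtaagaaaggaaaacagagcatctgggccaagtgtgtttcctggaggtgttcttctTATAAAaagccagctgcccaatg
Sprr1b: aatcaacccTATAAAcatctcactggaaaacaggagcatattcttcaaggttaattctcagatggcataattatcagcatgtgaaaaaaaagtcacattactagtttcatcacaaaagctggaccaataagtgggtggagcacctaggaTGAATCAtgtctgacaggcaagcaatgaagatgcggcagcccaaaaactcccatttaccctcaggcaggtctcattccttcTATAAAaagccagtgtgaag
Lipn: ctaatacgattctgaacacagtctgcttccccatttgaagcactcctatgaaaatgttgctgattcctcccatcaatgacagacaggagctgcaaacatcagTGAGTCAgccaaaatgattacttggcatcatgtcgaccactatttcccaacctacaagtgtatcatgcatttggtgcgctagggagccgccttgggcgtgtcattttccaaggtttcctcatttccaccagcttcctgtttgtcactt
Anxa10: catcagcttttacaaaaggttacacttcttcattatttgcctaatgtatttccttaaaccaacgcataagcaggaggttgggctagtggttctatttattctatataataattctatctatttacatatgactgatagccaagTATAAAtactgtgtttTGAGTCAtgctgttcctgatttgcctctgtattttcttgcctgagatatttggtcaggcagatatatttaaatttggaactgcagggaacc

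The AP-1 match began 96 and 126 bases before the start in Sprr1a, 101 in Sprr1b, 148 in Lipn and 91 in Anxa10. It read TGAGTCA in Sprr1a, Lipn and Anxa10 and TGAATCA in Sprr1b. The windows of Tgm1 and Anxa1 held no match. Of 21710 protein-coding promoter windows of the same length, 1344 (6.19%) held at least 1 match on either strand. AP-1 was 1 of 4 motifs looked for, and Sprr1a and Sprr1b are paralogs, so nothing is read from this share. A TATA match lay 23 bases before the start in Sprr1a, 20 and 241 bases before it in Sprr1b and 107 bases before it in Anxa10, against 11.9% of all windows with a match. The cyclic AMP response element (TGACGTCA) had no match in the 6 windows (1.7% of all windows). The STAT motif (TTCNNNGAA) matched in Tgm1 only, 61 and 170 bases before the start (7.71% of all windows). No letters of these 4 motifs overlapped in the printed windows. The Sprr1a and Sprr1b windows were identical at 144 of 230 aligned bases (62.6%). A match is a description of the sequence and says nothing on binding.

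Sprr1a, a precursor of the cornified envelope, held the highest level of the 6 genes after injury. It stood at 292, 371, 181, 334 and 344 CPM in CCI_WT libraries 1 to 5, against 0.0183, 0.209, 0.538, 0.45 and 0.311 CPM in Sham_WT libraries 1 to 5. In the libraries labelled KO it was at 265, 87.8 and 198 CPM in CCI_KO 2, 3 and 4, against 96.5, 45.4, 0.838 and 1.51 CPM in Sham_KO 1 to 4. All CCI_WT libraries lay far above all Sham_WT libraries, whereas CCI_KO 3 lay below Sham_KO 1. Even the lower pair, Sham_KO 3 and 4, lay above all 5 Sham_WT libraries, a separation that 1.13% of all genes tested showed. Nothing is read from that share, since Sham_WT levels chose the gene. The means were 183.5 ± 89.5 CPM in CCI_KO and 36.1 ± 45.4 CPM in Sham_KO, and 304.5 ± 74.4 CPM in CCI_WT and 0.305 ± 0.204 CPM in Sham_WT (SD).

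Sprr1b, its paralog, appeared at a far lower level in the same injured libraries. CCI_WT libraries 1 to 5 held 0.713, 0.994, 0.461, 1.8 and 1.26 CPM (306 counts in all), and all 5 Sham_WT libraries held 0 counts. With 3 counts over the Sham_WT group as the floor, Sprr1b was at least 106-fold higher in CCI_WT. CCI_KO 2, 3 and 4 held 0.427, 0.0181 and 0.184 CPM (40 counts), against 4 counts over Sham_KO, all of them in Sham_KO 2 (0.0735 CPM). CCI_KO 3, with 1 count, lay within the range of the Sham_KO libraries and the other CCI_KO libraries above it.

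The pair did not keep a fixed ratio. Sprr1b took 2.43 to 5.35 of 1000 Sprr1a and Sprr1b counts in the CCI_WT libraries. It took 1.61 (exact 95% interval 1.05 to 2.35) in CCI_KO 2, 0.206 (0.00522 to 1.15) in CCI_KO 3 and 0.932 (0.496 to 1.59) in CCI_KO 4. Sham_KO 1 held 5699 counts of Sprr1a and 0 of Sprr1b, which allows up to 0.526 of 1000 by a floor of 3 counts and 0.647 by the exact interval, and Sham_KO 2 stood at 1.62 of 1000 (0.441 to 4.13). Each of the 3 CCI_KO values thus lay below all 5 CCI_WT values. The interval of CCI_KO 2 overlapped those of CCI_WT 1 (1.78 to 3.24), CCI_WT 2 (2.03 to 3.47) and CCI_WT 3 (1.62 to 3.77), and no test was made because CCI_WT levels chose the genes. These intervals cover counting error only. Reads were amplified without molecular identifiers, so copies count as separate reads and the intervals may be too narrow even for that. The longest run of bases that the canonical transcripts of the pair share was 20 bases.

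Lipn encodes a lipase of the acid lipase family that is known from differentiating keratinocytes, and in human its mutation causes an ichthyosis. It was at 3.69, 6.72, 2.25, 5.02 and 6.23 CPM in CCI_WT 1 to 5 (1417 counts), against 2 counts over all Sham_WT libraries, both in library 4. This is a ratio of 739 (95% counting interval 204 to 6109). The interval pools counts over libraries, leaves out the spread between them and is no test. The fitted log2 difference was 9.13 with Sham_WT 4 and 11.13 without it, when Sham_WT held 0 counts and the value depends on the prior count. CCI_KO 2, 3 and 4 held 3.45, 2.01 and 2.93 CPM, against 0.627, 0.514, 0 and 0.0166 CPM in Sham_KO 1 to 4. Every CCI library lay above every sham library under both genotype labels, as was so for 4.41% of all genes tested in CCI_KO over Sham_KO and 3.44% in CCI_WT over Sham_WT. Nothing is read from the share in wild type, where the levels chose the gene. Nor is anything read from the share under the KO label, since Lipn passed the filter only with injured libraries.

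Anxa10 encodes an atypical annexin known from gastric epithelium. CCI_WT 1 to 5 held 6.54, 7.8, 2.86, 8.02 and 9.66 CPM, against 0.11 CPM in Sham_WT 1, 0.115 CPM in Sham_WT 5 and 0 counts in Sham_WT 2, 3 and 4. From 2081 counts against 13 counts the ratio was 167 (95% counting interval 97.4 to 314). CCI_KO 2, 3 and 4 held 6.64, 2.03 and 2.69 CPM, against 0.661, 1.07, 0.019 and 0.0993 CPM in Sham_KO 1 to 4. Here too every CCI library lay above every sham library of the same label.

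The values of Tgm1 and Anxa1 went against the description of genes switched on by injury, and they belong to the set through their role in the cornified layer. Tgm1, the membrane-bound transglutaminase of keratinocytes, whose loss in human causes lamellar ichthyosis, was near the detection limit everywhere. It averaged 0.301 ± 0.115 CPM in CCI_KO and 0.201 ± 0.157 CPM in Sham_KO, and 0.344 ± 0.144 CPM in CCI_WT and 0.250 ± 0.257 CPM in Sham_WT. The highest single value, 0.673 CPM (40 counts), was that of Sham_WT 3, and Sham_WT 1 and Sham_KO 3 held 0 counts. All 4 groups overlapped.

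Anxa1 was present in all 17 libraries. It held 61.7, 81.5, 26.3, 57.1 and 58.4 CPM in CCI_WT 1 to 5, against 24.3, 26.6, 32.4, 41.1 and 40.4 CPM in Sham_WT 1 to 5, so that CCI_WT 3 lay within the sham range and the other CCI_WT libraries above it. CCI_KO 2, 3 and 4 held 63.1, 33.2 and 49.1 CPM, against 32.0, 45.6, 17.3 and 82.8 CPM in Sham_KO 1 to 4. The highest Anxa1 level of the series was thus in a sham library, Sham_KO 4. In that library the 10 neutrophil markers summed to 1698 CPM, against 25.1 to 411 CPM in the other 16 libraries. Anxa1 is also abundant in neutrophils, and their part in the Anxa1 values was not tested.

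**Figure D1:**
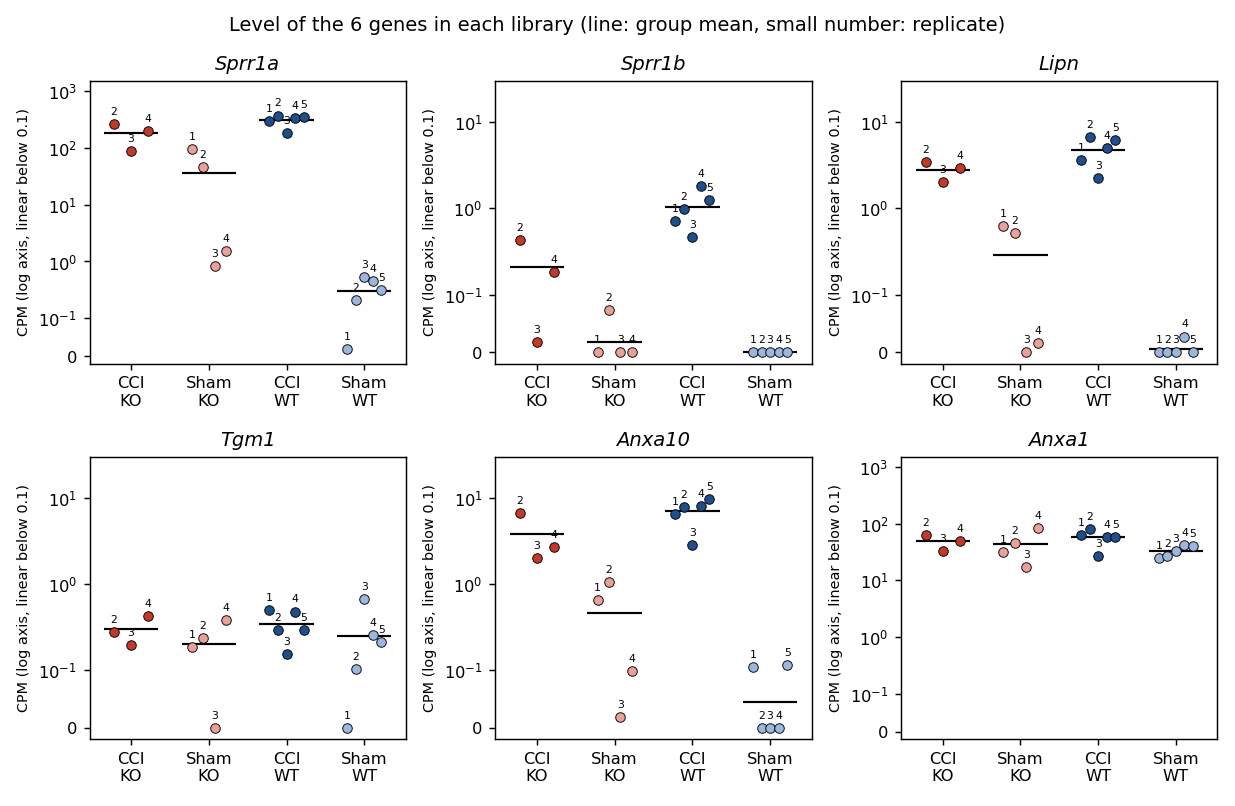
Level of the 6 genes in each library in CPM on a log axis that is linear below 0.1, with groups from left to right CCI_KO, Sham_KO, CCI_WT and Sham_WT, 1 point per library with its replicate number and a line at the group mean. Sprr1a, Sprr1b, Lipn and Anxa10 are at or near 0 in Sham_WT, with Sham_KO 1 and 2 above Sham_KO 3 and 4 for Sprr1a, Lipn and Anxa10, while Tgm1 and Anxa1 overlap across the groups.

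Per kb of annotated exon, the order of mean levels in CCI_WT was Sprr1a (184.9 RPKM, reads per kb per M counts), Anxa1 (18.2), Anxa10 (3.04), Lipn (1.64), Sprr1b (1.26) and Tgm1 (0.102). In Sham_WT it was Anxa1 (10.5), Sprr1a (0.185), Tgm1 (0.0742), Anxa10 (0.0196), Lipn (0.00188) and Sprr1b (0). Lipn and Sprr1b in CCI_WT were closer than their spread, with coefficients of variation of 38.5% and 49.4% between libraries, and Sprr1a was the least variable of the 6 genes there (24.4%). CCI_WT 3 was the lowest of its group for all 6 genes, and CCI_KO 3 was the lowest of its group for all 6. Atf3 was likewise lowest in CCI_WT 3 (108 CPM) and in CCI_KO 3 (93.8 CPM). In bulk tissue, fewer cells that carry a transcript and less transcript per cell cannot be told apart.

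The question in mice labelled knockout was whether injury raised the 6 genes there too, in libraries whose values the choice did not name. The genes were chosen with earlier results of these data known, so this is not an independent check. Sprr1b reached 10 counts in 0 of 4 Sham_KO and 2 of 3 CCI_KO libraries, and passed the filter only through injured libraries. Lipn and Anxa10 each reached 10 counts in 2 of 4 Sham_KO, 0 of 5 Sham_WT and 3 of 3 CCI_KO libraries. The sham libraries alone would not have passed them, since the filter asks for as many libraries as the smallest group holds. The edgeR quasi-likelihood test over 23972 genes called 0 of the 6 (background 0.0709% called higher, 17 genes), and DESeq2 and limma-voom also called 0. At an unadjusted p under 0.05 edgeR counted 4 of 6, against 8.63% of all genes tested. Nothing is read from this share, since Sprr1b, Lipn and Anxa10 passed the filter through injured libraries. The log2 differences of CCI_KO over Sham_KO were 3.26 ± 0.83 for Lipn (SE, edgeR adjusted p = 0.229), 3.03 ± 0.90 for Anxa10 (edgeR adjusted p = 0.312), 3.41 ± 1.10 for Sprr1b (edgeR adjusted p = 0.321) and 2.35 ± 1.01 for Sprr1a (edgeR adjusted p = 0.529). With 1 library left out, the log2 difference ran from 2.40 (without CCI_KO 2) to 6.67 (without Sham_KO 2, which leaves 0 counts in Sham_KO) for Sprr1b and from 1.94 (without Sham_KO 3) to 3.53 (without Sham_KO 1) for Sprr1a. It ran from 2.86 (without Sham_KO 3) to 3.98 (without Sham_KO 1) for Lipn and from 2.35 (without CCI_KO 2) to 3.84 (without Sham_KO 2) for Anxa10. Tgm1 differed by 0.57 ± 0.99 (edgeR adjusted p = 0.945) and Anxa1 by 0.13 ± 0.46 (edgeR adjusted p = 0.978). Lipn and Anxa10 were the 2 of 6 with every CCI_KO library above every Sham_KO library, against 4.41% of all genes tested. As both passed the filter only with injured libraries, nothing is read from this separation.

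The Sham_KO libraries differed widely among themselves. Relative to the CCI_WT mean, Atf3 stood at 63.9% in Sham_KO 1 and 47% in Sham_KO 2, Sprr1a at 31.7% and 14.9%, Lipn at 13.1% and 10.8%, and Anxa10 at 9.47% and 15.3%. Sprr1b was at 0% in Sham_KO 1 and 7.03% in Sham_KO 2. In these libraries each of the 4 genes thus stood at a smaller share of its injured wild-type level than Atf3 did. In Sham_KO 3 and 4 Atf3 was at 5.05% and 5.98%, near the 4.28 to 7.61% of the Sham_WT libraries, and Sprr1a at 0.275% and 0.495%.

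Without Sham_KO 1 and 2, edgeR called 3 of the 6 genes higher in CCI_KO (background 0.547% called higher in that fit), namely Sprr1a (7.27 ± 0.68, edgeR adjusted p = 0.00196), Lipn (edgeR adjusted p = 1.3e-05) and Anxa10 (5.90 ± 1.15, edgeR adjusted p = 0.0455). Lipn then had 528 counts in CCI_KO against 1 count in Sham_KO 3 and 4, a ratio of 319 (95% counting interval 57.1 to 12639.5). Sprr1b (40 counts against 0, at least 8.07-fold higher) had an edgeR adjusted p = 0.115, Tgm1 0.922 and Anxa1 0.994. These libraries are left out because axon injury genes stand high in them. Sprr1a, Lipn and Anxa10 also stood higher in them than in Sham_KO 3 and 4, so this choice is not independent of the values tested. No sham library that remained held 10 counts of Sprr1b, Lipn or Anxa10, which passed the filter of this fit only through injured libraries. Nothing is therefore read from these calls or from the share beside them.

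**Figure D2:**
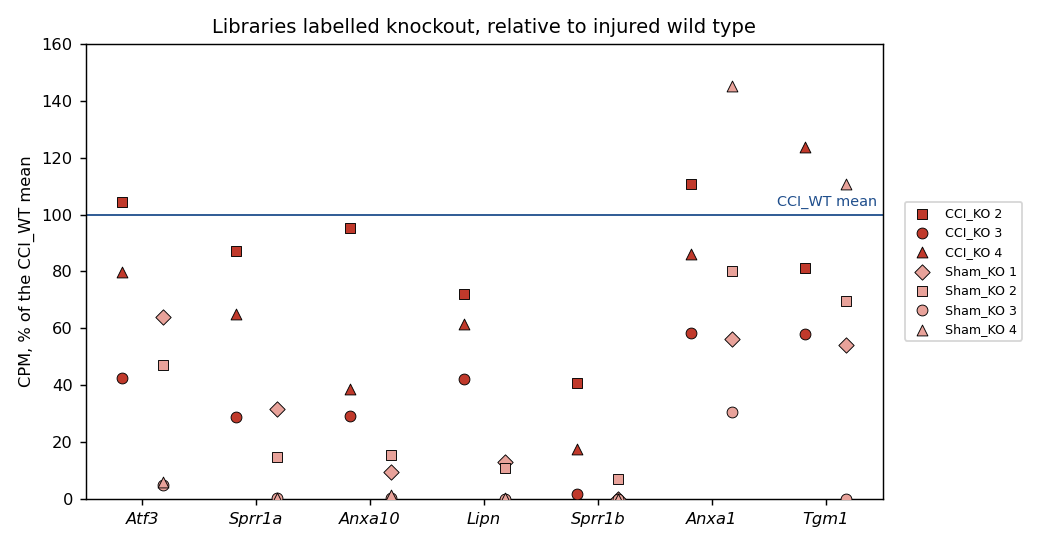
Level of Atf3 and the 6 genes in each library labelled KO, as a percentage of the gene's CCI_WT mean (line at 100%), with CCI_KO in dark red left of Sham_KO in light red and a symbol per replicate number. In Sham_KO 1 and 2 Atf3 stands at 63.9% and 47%, and Sprr1a, Anxa10, Lipn and Sprr1b at 0 to 31.7%.

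Between genotype labels the levels are descriptions, since the wild-type groups chose the genes. After injury the CCI_KO means were 60.3% of the CCI_WT mean for Sprr1a, 58.5% for Lipn, 54.3% for Anxa10 and 20.1% for Sprr1b, beside 75.5% for Atf3. For Sprr1b all 3 CCI_KO libraries lay below all 5 CCI_WT libraries, and for the other 5 genes the ranges overlapped. Over all genes tested 4.37% lay below in this way, and nothing is read from that share, since CCI_WT levels chose the genes. The difference in injury effect between the genotype labels was not tested.

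The profile over the 17 libraries was compared with those of 16062 genes by the root mean square distance between standardized log2 CPM values, where the median gene lay at about 1.40 from each of the 6. The nearest genes named here are from outside the 6. Nearest to Sprr1a were the neuropeptide gene Nts (distance 0.203), Gap43, a growth cone protein (0.228), and Ecel1, an endopeptidase-like membrane protein (0.229). Nearest to Lipn were the neuropeptide genes Npy (0.213) and Nts (0.222) and Atf3 (0.232), and nearest to Anxa10 were Npy (0.199), the tubulin gene Tubb6 (0.240) and Atf3 (0.279). Npy averaged 47.0 CPM in CCI_KO and 5.13 CPM in Sham_KO, and 99.5 CPM in CCI_WT and 0.241 CPM in Sham_WT. Sprr1b, with few counts, lay nearest to the cytokine receptor gene Tnfrsf12a (0.333), Scpep1 (0.356) and Trp53i11 (0.362).

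Among the 6 genes, Sprr1a and Lipn lay 0.241 apart, Lipn and Anxa10 0.244, and Sprr1a and Anxa10 0.367. Sprr1a and its paralog Sprr1b lay 0.608 apart, farther than either pair with Lipn. Tgm1 and Anxa1 lay 0.935 to 1.11 from the 4 injury-associated genes. Their nearest genes were only as close as 0.538 (Ckap2, 0.569 for Rpe and 0.577 for Zfp758) and 0.525 (the chemokine gene Cxcl14, 0.542 for Specc1 and 0.548 for Kif22). These distances describe the libraries, which share their groups, and were not tested.

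The keratinocyte program as a whole was not seen beside these genes. Of 19 keratinocyte markers 13 were at most 1 CPM in every library, and Krt5, a defining keratin of basal cells, had no count in the series. The summed level was 55.1 to 61.6 CPM in CCI_KO and 43.1 to 71.3 CPM in Sham_KO, and 61.2 to 88.1 CPM in CCI_WT and 51.6 to 68.1 CPM in Sham_WT, most of it from the integrin gene Itgb4. Krt10 and Krt1, keratins of the suprabasal epidermis, followed at group means of 4.61 to 5.39 CPM and 1.99 to 3.06 CPM. Of the 13 markers tested edgeR called 0 in each of the 4 comparisons, with 1 or 2 at an unadjusted p under 0.05 (8.63 to 13.8% of all genes tested). DESeq2 called 1 marker after injury in wild type and 0 in the other comparisons, and limma-voom called 0.

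**Figure D3:**
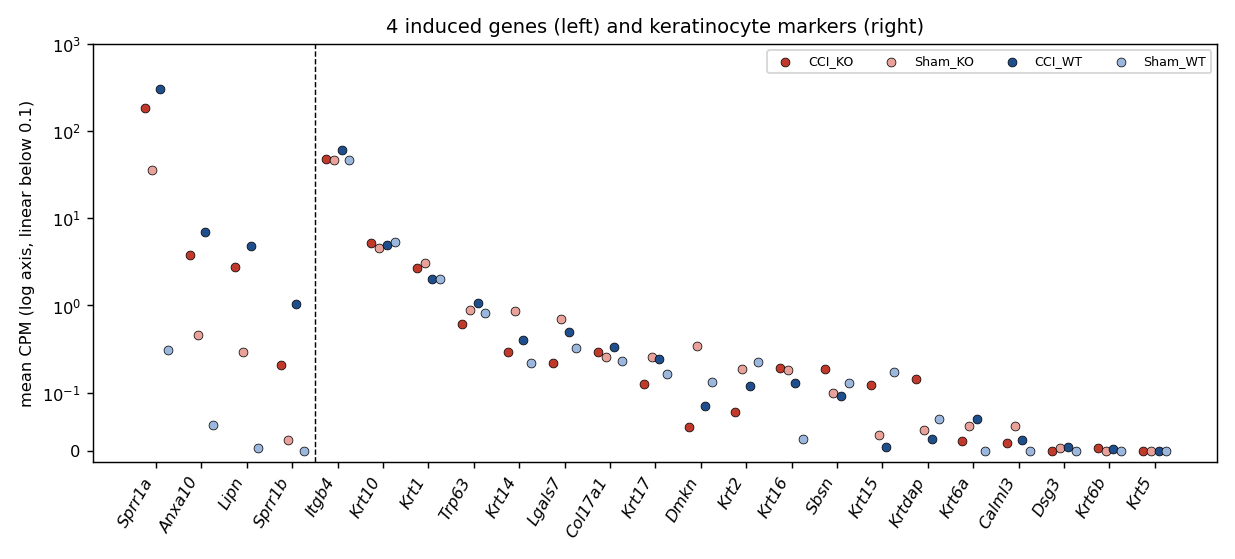
Mean CPM in CCI_KO, Sham_KO, CCI_WT and Sham_WT, left to right within each gene, for Sprr1a, Anxa10, Lipn and Sprr1b (left of the dashed line) and the 19 keratinocyte markers (right), on a log axis that is linear below 0.1. The 4 genes on the left differ widely between the groups, while Krt10 and Krt1 lie close together in all 4 groups. Itgb4 averages 61.5 CPM in CCI_WT and 46.9 to 47.9 CPM in the other groups. The other 16 of the 19 markers average at most 1.06 CPM in each group.

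The other genes of cornification, annexin and lipase function came from 9 lists with 165 genes beyond the 6, of which 30 had no count and 89 were tested. After injury in wild type 5 of the 89 rose and 0 fell, against 2.34% of all genes called higher and 0.713% called lower (edgeR). They were Lce1g, Lce1f, Dsp, S100a11 and Fosl2. Over Sham_WT, Lce1g, Lce1f and Dsp held 1, 0 and 1 counts, and they passed the low-count filter only through other libraries. Genes this near 0 in sham could only rise, so nothing is read from the direction of these calls. The median log2 difference over the 89 was 0.11, against −0.01 over all genes tested. In the libraries labelled KO edgeR called 0 of the 89 after injury (background 0.0834% called either way), with 5 at an unadjusted p under 0.05 (8.63% of all genes tested), and DESeq2 and limma-voom also called 0.

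Of the 14 other Sprr genes 0 reached the count needed for a test and 6 had no count. Sprr2i, the best covered, held 21 counts in CCI_KO against 1 count in Sham_KO, and 28 counts in CCI_WT against 0 in Sham_WT, which is at least 9.74-fold higher. Its transcript shares 12.5% of its 50-base stretches with other Sprr2 genes, so some of these reads may not be assigned to 1 gene. Sprr2b, the next in level, held 4 counts in CCI_KO, 6 counts in Sham_KO and 0 in wild type. By counts, the Sprr family was thus represented almost wholly by Sprr1a.

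Of the 51 other genes of the epidermal differentiation complex 9 averaged at least 1 CPM and 17 had no count, against 32098 of all 78298 identifiers with no count. Among the 17 were Flg and Flg2 (the filaggrins that bundle keratin), Hrnr, Rptn and Crnn. The envelope precursor Ivl held 4 counts, all in CCI_WT. Of 17 tested genes 3 rose in wild type. Lce1g, a late cornified envelope gene, held 0.155, 0.366, 0.557, 0.537 and 0.445 CPM in CCI_WT 1 to 5 (118 counts), against 1 count over Sham_WT (edgeR adjusted p = 0.00094). The ratio was 123 (95% counting interval 21.7 to 4903). All CCI_WT libraries lay above all Sham_WT libraries, as was so for 3.44% of all genes tested. Lce1f held 53 counts in CCI_WT against 0 in Sham_WT, at least 18.4-fold higher (edgeR adjusted p = 0.0475). This call was lost in 10 of 15 fits with 1 library left out, those without any of the 5 Sham_WT libraries, Sham_KO 2, CCI_KO 3 or 4, or CCI_WT 2 or 4, at edgeR adjusted p = 0.0551 to 0.0944.

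Lce1g and Lce1f share 17.8% and 7.02% of their 50-base stretches with other late cornified envelope genes, and their counts are uncertain to that extent. Lce1g was also higher in Sham_KO (33 counts) than in Sham_WT (1 count, edgeR adjusted p = 0.0238). It was the single gene of the 89 called higher for genotype in sham (background 0.259%). A gene this near 0 in Sham_WT could only be called higher, and Lce1g passed the low-count filter only with injured libraries. Nothing is therefore read from the direction of this call or from the share beside it. That call was lost without Sham_KO 3 (edgeR adjusted p = 0.0575) and without Sham_WT 3, 4 or 5 (edgeR adjusted p = 0.0524, 0.0617 and 0.0736). Among the Sham_KO libraries Lce1g was highest in library 3 (0.343 CPM), with 0.0339 CPM in Sham_KO 1 and 0.0918 CPM in Sham_KO 2.

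S100a11, a calcium-binding partner of Anxa1 that is also a transglutaminase substrate, rose by 0.99 ± 0.16 on the log2 scale in wild type (edgeR adjusted p = 0.00447). It stood at 127, 149, 89.8, 111 and 140 CPM in CCI_WT 1 to 5, against 61.3, 56.1, 78.6, 51.1 and 65 CPM in Sham_WT 1 to 5. In the libraries labelled KO it was at 131, 89.2 and 105 CPM in CCI_KO, against 76.2, 86, 59.2 and 61.5 CPM in Sham_KO (0.61, edgeR adjusted p = 0.352). The CCI libraries lay above the sham libraries under both labels. Such a separation was seen for 3.44% of all genes tested in wild type and 4.41% under the KO label. S100a11 shares 11.8% of its 50-base stretches with pseudogenes. S100a6 and S100a10, the most abundant genes of the complex, at 267.8 to 289.7 and 426 to 492.8 CPM as group means, were not called by edgeR.

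Dsp, desmoplakin, which anchors keratin at desmosomes, held 0.713, 0.576, 0.0384, 0.371 and 0.291 CPM in CCI_WT 1 to 5 (120 counts), against 1 count over Sham_WT (ratio 125, 95% counting interval 22 to 4986, edgeR adjusted p = 0.00463). CCI_WT 3, with 2 counts, was again the lowest. It was 1 of 16 tested envelope and desmosome genes called. Jup and Perp, the most abundant of these, at group means of 300.8 to 410.3 CPM and 11.9 to 14.1 CPM, were not called by edgeR in the 4 comparisons. Jup in Sham_KO over Sham_WT had a log2 difference of 0.43 ± 0.10 (edgeR adjusted p = 0.056) and was called in 7 of 25 alternatives, with adjusted p from 1.6e-05 to 0.643. It stood at 486 and 481 CPM in Sham_KO 1 and 2, against 355 and 319 CPM in Sham_KO 3 and 4. The Sham_WT libraries held 282 to 325 CPM. Without Sham_KO 1 and 2 the log2 difference was 0.155 ± 0.072 (edgeR adjusted p = 0.643). Fosl2, an AP-1 subunit of the Fos family and 1 of 15 tested epidermal transcription factors called, was at 9.68, 11.4, 7.94, 11.1 and 9.62 CPM in CCI_WT, against 4.3, 4.55, 5.7, 5.16 and 3.71 CPM in Sham_WT, a rise of 1.08 ± 0.21 (edgeR adjusted p = 0.00404). The wild-type groups did not overlap, and 3.44% of all genes tested had every CCI_WT library above every Sham_WT library. Fosl2 differed by −0.09 in CCI_KO over Sham_KO (edgeR adjusted p = 0.972), with its highest level of all libraries, 12.0 CPM, in Sham_KO 2. Junb and Jund, at group means of 43.4 to 49.7 and 60.1 to 71.2 CPM, were not called.

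AP-1 motifs were not shared by all injury-associated genes of the lists. The promoter windows of S100a11 and Sprr2i held 1 match each, 10 and 193 bases before the start. Those of Dsp, Fosl2, Lce1f and Lce1g held none.

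**Figure D4:**
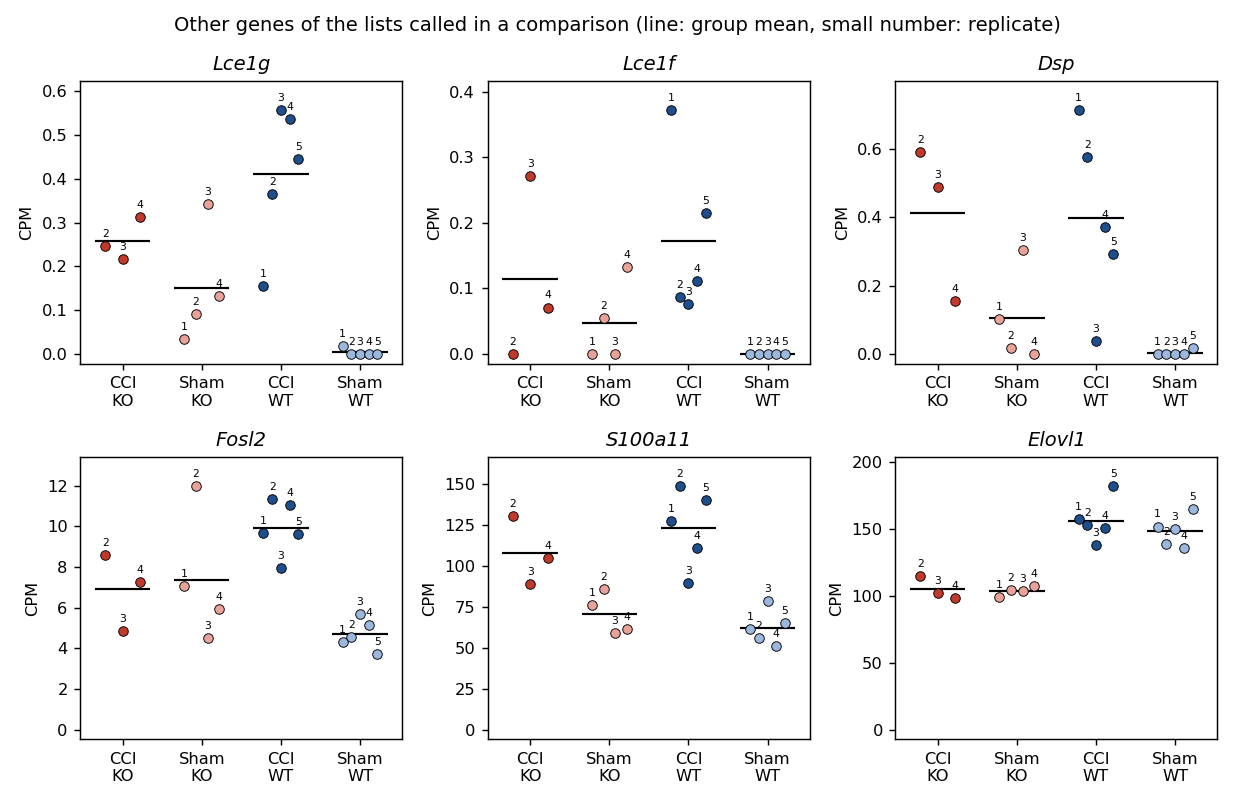
CPM in each library of the 6 list genes called in a comparison, with groups from left to right CCI_KO, Sham_KO, CCI_WT and Sham_WT, 1 point per library with its replicate number and a line at the group mean. Lce1g, Lce1f and Dsp are at 0 or 1 count in the Sham_WT libraries, and S100a11 is higher after injury under both labels. Elovl1 is lower under the KO label in both treatments.

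The tested relatives of Tgm1, Anxa10, Anxa1 and Lipn had 0 calls in the 4 comparisons by edgeR, DESeq2 and limma-voom, apart from S100a11. After injury in wild type 1 of 6 transglutaminases, 3 of 9 annexins and 3 of 5 acid lipases had an unadjusted edgeR p under 0.05 (13.8% of all genes tested), with list medians of 0.06, 0.04 and 0.27 on the log2 scale, in that order. The most abundant transglutaminases beyond Tgm1, Tgm2 and F13a1, stood at group means of 9.9 to 11.2 and 8.07 to 11.3 CPM. The annexins Anxa2 and Anxa5 had group means of 1865 to 2060 and 1899 to 2152 CPM. Of 8 tested annexin partners and formyl peptide receptors only S100a11 was called, and Ahnak, a partner of the Anxa2 complex, stood at 302 to 356 CPM as group means. Among the acid lipases, the lysosomal lipase gene Lipa had group means of 106 to 114 CPM and Lipo3 of 18.8 to 22.7 CPM.

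Of 17 tested barrier lipid and protease genes, Elovl1, an elongase of saturated very long-chain fatty acids, was the single gene called. It was lower under the KO label both after sham (−0.52 ± 0.07, edgeR adjusted p = 0.000416, background 0.743% called lower) and after CCI (−0.57 ± 0.08, edgeR adjusted p = 0.000689, background 0.501% called lower). It averaged 104.9 ± 8.43 CPM in CCI_KO and 103.3 ± 3.45 CPM in Sham_KO, and 155.9 ± 16.2 CPM in CCI_WT and 148 ± 11.7 CPM in Sham_WT. Every CCI_KO library lay below every CCI_WT library, as was so for 4.37% of all genes tested. Schwann cell markers moved the same way, 5 of 8 lower under the KO label in each treatment, and their part in the Elovl1 values was not tested. Slc27a4 and Smpd1, the other abundant genes of this list, at group means of 146.8 to 165.3 and 143 to 156.2 CPM, were not called.

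Several other marker lists had calls after injury in wild type. Over all genes tested, edgeR called 2.34% higher and 0.713% lower there, and 13.8% had an unadjusted p under 0.05. Macrophage markers had 3 of 9 higher, with summed levels of 69.5 to 138.9 CPM in CCI_WT and 48.7 to 88.7 CPM in Sham_WT, and the 12 axon injury genes were all higher, with 1266 to 2046 CPM in CCI_WT and 590 to 799 CPM in Sham_WT. In the libraries labelled KO the axon injury genes summed to 1226 to 1796 CPM in CCI_KO and 636 to 1459 CPM in Sham_KO. After injury there edgeR called 0 of 12 (background 0.0834% called either way), with 4 at an unadjusted p under 0.05 (8.63% of all genes tested). DESeq2 called 1 and limma-voom 0. Satellite glia markers had 2 of 6 higher in CCI_WT, Schwann cell markers 2 of 8 and endothelial markers 1 of 6, and sensory neuron markers 1 of 12 higher and 3 lower. Neutrophil, fibroblast, perineurial, skeletal muscle and adipocyte markers had 0 called there by edgeR, with 0, 2, 1, 0 and 0 at an unadjusted p under 0.05, and DESeq2 and limma-voom each called 1 perineurial marker and 0 of the others. The part of these cell types in the levels of the 6 genes was not tested.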

How the data were processed

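Per the labels' protocols, PicoPure and SMART-Seq v4 kits were used in preparing RNA and libraries. The second kit keeps no strand, so reads of a gene and of an antisense partner cannot be told apart. Reads were aligned with STAR 2.7.11a to GRCm39 after bcl2fastq 2.20.0.422, per the submitters' processing notes. Which counter was run, with which strand setting and annotation, is not given in the sources used here. Deposited tables hold raw counts per Ensembl gene, the unit used throughout. Their summary lines, left out, held 4.03 to 4.55% of each table's total as reads outside genes and 7.63 to 8.17% as ambiguous reads.

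Symbols, exon lengths, coordinates and transcript starts came from GENCODE M39 (78168 of 78298 identifiers matched). CPM used TMM factors in edgeR 4.0.16 (R 4.3.3). After filterByExpr by group (minimum count 10, total 15), 23972 genes were tested with the quasi-likelihood F test on a mean per group over 17 libraries, adjusted over all of them by Benjamini-Hochberg, at a threshold of 0.05. The standard error is the size of the log2 difference divided by the square root of F. The fit was tested on simulated counts with 200 changed genes. Levels are means ± SD between libraries. Counting intervals are exact at 95% and leave out the spread between libraries, and floors are 3 counts over a group.

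The alternatives were DESeq2 1.42.0, limma-voom (limma 3.58.1), DESeq2 size factors, other low-count filters, a fit of only the 2 groups compared, a replicate block, each library left out, and Sham_KO 1 and 2 left out. The rule for named genes took the 6 genes, Atf3, up to 4 called genes per list by smallest p, the 2 most abundant genes per list, and the 3 protein-coding genes nearest in profile. Sprr2i was also named by its level. The members and lists were chosen with earlier results of these data known. Protein sequences were not used here. Python 3.11.15 with NumPy 2.4.6, pandas 2.3.3, SciPy 1.17.1, Matplotlib 3.10.9 and Biopython 1.88 was used for the rest.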

Additional observations from a re-analysis of the deposited data

Results flagged for a closer look

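Among 82 groups of 4 or 5 libraries examined for the genes named above, 10 had a library separated from the rest of its group by most of the group's range. The cutoff used is meant to flag about 1 in 20 groups by chance. That rate does not hold for genes near the detection limit. Where a single library of a group holds any count, that library is separated whatever its level. The 10 groups are therefore not compared with the rate, and no excess is read from them.

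For 6 genes at or near 0 the separated library was the single one of its group with any count. These were Sprr1b in Sham_KO 2 (0.0735 CPM), Lipn in Sham_WT 4 (0.0273 CPM), Dsp in Sham_WT 5 (0.0164 CPM), Lce1g in Sham_WT 1 (0.0183 CPM), Sprr2b in Sham_KO 1 (0.102 CPM) and Sprr2i in Sham_KO 2 (0.0184 CPM). Of the counts behind them, Dsp, Lce1g and Sprr2i had 1, Lipn 2, Sprr1b 4 and Sprr2b 6.

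For 4 abundant genes the separated library was the highest or lowest of its group. Anxa5 was at 2295 CPM in Sham_KO 3, against 1856 to 1927 CPM in the other Sham_KO libraries. Jund was at 77.6 CPM in CCI_WT 5, against 68.6 to 71 CPM. Jup was at 337 CPM in CCI_WT 3, against 282 to 298 CPM. S100a10 was at 374 CPM in Sham_WT 4, against 435 to 443 CPM.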

How the results depend on the processing

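The count of the 6 genes called after injury in libraries labelled KO was 0 under each alternative except that without Sham_KO 1 and 2 together, which gave 3. The corresponding count of other list genes was 0 under each alternative. In wild type, 5 list genes were called. The count was 10 with no low-count filter, and 2 with the stricter filter (1 CPM in at least 3 libraries), with DESeq2 and with only the 2 groups compared. It was 4 to 6 with 1 library left out. For genotype in sham, 2 list genes were called, against 6 with no low-count filter, 5 with DESeq2, 1 with only the 2 groups compared and 1 to 5 with 1 library left out. For genotype after CCI the count was 1 under each alternative. The log2 difference of Anxa1 in libraries labelled KO turned to −0.0501 without Sham_KO 1 and 2 and ran from −0.15 to 0.62 with 1 library left out. The stricter filter removed Tgm1.

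Whether replicate numbers pair the libraries is not settled. Over 22 pairs of libraries with the same number, the deviations from group means correlated at −0.068 to 0.348, with 8 over 0.1. The pairs of number 3 were all positive, at 0.0881 to 0.348. Pairs with different numbers ran from −0.461 to 0.386. With the replicate number as a block, 0 of the 6 genes were called, and 4 list genes in wild type, 1 for genotype in sham and 1 after CCI.

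Depth limits the low genes most. Sprr1b, Lce1g, Lce1f and Dsp rest on 53 to 306 counts over the 5 CCI_WT libraries, and Tgm1 on 102.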
